A study of Mus musculus with 7 samples.

Results

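The genes studied here encode subunits of the mitochondrial respiratory chain (complexes I to IV) and of ATP synthase (complex V). Members were the protein-coding genes whose GENCODE symbol begins with Nduf and a subunit letter and number (assembly factors of the Ndufaf series left out), Sdh with a letter from a to d, Uqcr, Cox with a number from 4 to 8 or Atp5, together with Cyc1 and the mt-Nd, mt-Co, mt-Atp and mt-Cytb genes. This rule gave 103 of the 56065 genes in the table, 90 encoded in the nucleus and 13 in mitochondrial DNA (mtDNA). Of the nuclear members 37 belonged to complex I, 4 to complex II, 9 to complex III, 21 to complex IV and 19 to complex V. Of the mtDNA members 7 belonged to complex I, 1 to complex III, 3 to complex IV and 2 to complex V. Another 18 genes carried matching symbols but were annotated as pseudogenes or noncoding RNA and were left out.

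RNA was sequenced in bulk from the whole extrahepatic bile duct (EHBD) of wild-type mice (C57BL/6 in the labels, C57BL/6J in the study's methods), 48 hours after bile duct ligation (BDL) or sham surgery. In BDL a ligature at the duodenal end closes the duct so that bile cannot drain, whereas in sham surgery the abdomen is opened but nothing is tied. There were 4 BDL libraries, 2 from males (replicates 1 and 2) and 2 from females (replicates 3 and 4), and 3 sham libraries, 1 from a female and 2 from males. The labels do not name the animals, but the study gives the size of these groups in mice, and each library was taken as a separate mouse.

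Complexes I and II pass electrons from NADH and succinate to ubiquinone, complex III passes them on to cytochrome c, and complex IV hands them to oxygen. Complexes I, III and IV pump protons out of the mitochondrial matrix, and ATP synthase uses the return flow to make ATP. Complex II is built only from nuclear gene products, whereas each of the other complexes also holds subunits translated inside the organelle from mtDNA. A few subunits of complexes IV and V exist as isoforms from separate genes, some of them typical of heart, skeletal muscle and brown fat.

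Library totals lay between 53076805 and 58698230 counts in BDL and between 48882420 and 61291821 counts in sham, and 25209 genes were tested. The libraries differed in RNA from neighbouring tissue. Together, 25 acinar markers of the pancreas took 0.00288% to 16.4% of the counts of BDL libraries and 13.3% to 50% of those of sham libraries. The 16 hepatocyte markers took 0.0125% to 4.91% in BDL and 0.056% to 0.167% in sham. None of these 41 markers passed the test, and none was at 0 in all libraries. The 10 biliary epithelial markers, which define the duct lining, took 1.25% to 1.64% in BDL and 0.349% to 0.819% in sham, with 5 higher and 1 lower. The 7 fibroblast markers took 1.09% to 1.28% in BDL and 0.308% to 0.998% in sham, with 3 higher and 2 lower. The 6 leukocyte markers took 0.00791% to 0.0114% in BDL and 0.00941% to 0.0326% in sham, and 4 fell. Of the smooth muscle, pericyte and blood endothelial markers, 1 of 8, 1 of 5 and none of 4 were higher, and 2 of each list were lower. The part of these cell types in the members' result was not tested. In bulk tissue, fewer cells of a type and less RNA per cell cannot be told apart.

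Many nuclear respiratory genes share promoter sites for a small set of factors, chiefly NRF1, the ETS protein GABP and YY1, so their promoters were searched on both strands for the letters CGCATGCG (the palindromic NRF1 core), CCGGAAGT (ETS) and AAGATGGCG (YY1), none of which contains another. The RefSeq promoter table (GRCm38.p6, 250 bases before and 50 after each annotated start) held 68 of the 90 nuclear members. The NRF1 letters stood in 13.2% of these members and in 2.77% of the 17492 protein-coding genes in the table. The YY1 letters stood in 10.3% of members and in 2.14% of all genes, and the ETS letters in 7.35% and 5.69%. At least 1 of the motifs stood in 5 of the 15 members in the table that rose in BDL (33.3%). The same held for 14 of the 51 that did not pass the test (27.5%) and for 9.96% of the 17492 genes. The promoters printed here run from 100 bases before the start to 50 after it. Uqcrc1, Atp5mc2 and Cox8b had the smallest p of the nuclear members of complexes III, V and IV. Ndufs4 was picked as a complex I member that rose and holds a motif. Ndufa10 and Ndufb6 of complex I had smaller p-values, and their promoters in the table held none of the motifs. Nor did those of Cox5a and Sdhd, which rose in complexes IV and II. Capitals mark NRF1 letters in Uqcrc1 (chr9:108936548-108936697, plus strand) at position 31 and in Atp5mc2 (chr15:102670998-102671147, minus strand) at position -41, counted from the start as 0, and YY1 letters in Ndufs4 (chr13:114388045-114388194, minus strand) at position 35. The promoter of Cox8b (chr7:140900397-140900546, minus strand) held none of these letters.
Uqcrc1: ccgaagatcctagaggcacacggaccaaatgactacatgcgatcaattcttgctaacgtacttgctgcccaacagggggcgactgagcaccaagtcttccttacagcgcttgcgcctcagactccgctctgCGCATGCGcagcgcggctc
Atp5mc2: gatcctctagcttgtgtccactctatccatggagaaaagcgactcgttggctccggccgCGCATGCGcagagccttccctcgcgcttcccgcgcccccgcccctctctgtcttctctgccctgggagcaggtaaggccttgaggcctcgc
Ndufs4: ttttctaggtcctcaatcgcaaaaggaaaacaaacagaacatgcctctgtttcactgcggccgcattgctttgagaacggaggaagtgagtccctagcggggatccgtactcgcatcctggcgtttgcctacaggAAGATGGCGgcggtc
Cox8b: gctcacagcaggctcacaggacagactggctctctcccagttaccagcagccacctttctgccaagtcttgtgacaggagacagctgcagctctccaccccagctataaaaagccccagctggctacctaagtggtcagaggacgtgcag

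The first comparison asked whether the nuclear members differed between BDL and sham. Of the 90, 85 had enough counts to be tested, 19 rose, 1 fell and 65 did not pass (edgeR quasi-likelihood test, adjusted p under 0.05). The other 5 (Cox6a2, Cox7b2, Cox8c, Ndufb11b and a second identifier named Atp5po) were at or near 0. The 19 that rose were 22.4% of those tested, against 11.8% of all genes tested, and 11% of all genes fell. Nuclear protein-coding genes with a mean of at least 10 counts per 1000000 (CPM) are the closer background, since 78 of the 85 tested members reached that level, and of these 9985 genes 22.9% rose. The share of members that rose was therefore near that background (23.1% of the 78). Their median log2 fold change of BDL over sham was 0.47, or 1.39-fold, against 0.20 for the 9985 genes and -0.01 for all genes tested. Of the 85, 73 had a positive and 12 a negative log2 fold change, where 6143 of the 9985 genes were positive and 3842 negative. In 39 of them (45.9%) every BDL library lay above every sham library, against 31% of the 9985 genes and 18.7% of all genes tested. Of the tested nuclear members, 19.4% rose in complex I, 25% in II, 33.3% in III, 5.56% in IV and 38.9% in V. These shares rest on few genes each and stand against 22.9% of the 9985 genes.

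**Figure D1:**
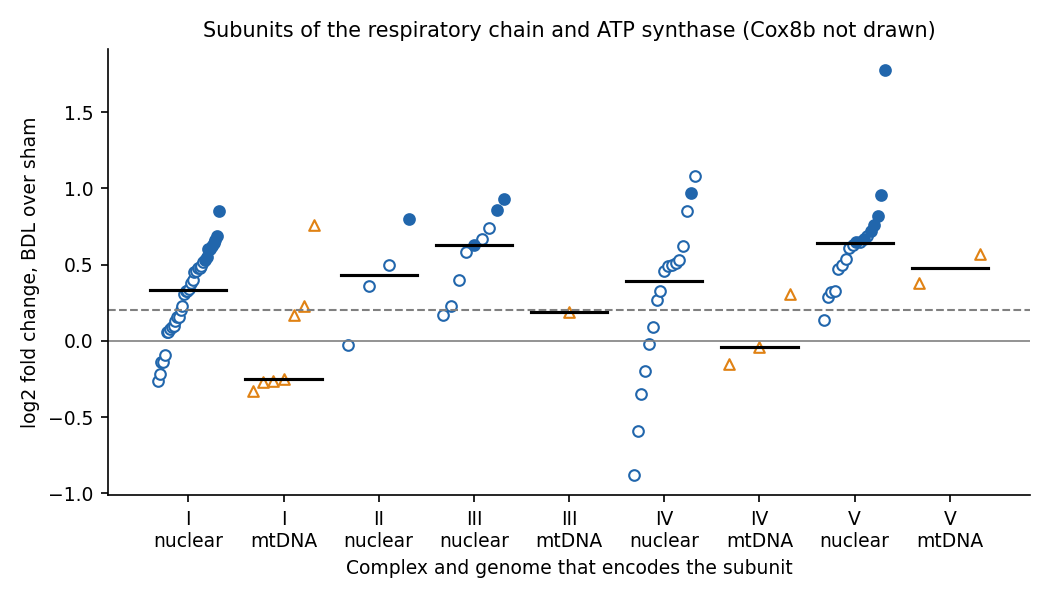
Log2 fold change of BDL over sham for each tested subunit gene, by complex and by the genome that encodes it (circles nuclear, triangles mtDNA, filled where the adjusted p was under 0.05). Bars give the median of each column and the dashed line the median of 9985 nuclear protein-coding genes with at least 10 CPM (0.20). All 9 nuclear subunits of complex III and all 18 of complex V lie above 0, and Cox8b, far below the axis, is not drawn but counts in its column's median.

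The calls rested on few libraries. With BDL replicate 1, sham replicate 1 (the only sham library from a female) or sham replicate 3 left out, 2 nuclear members rose in each case (2.35% of those tested), and 6.82%, 8.51% and 7.04% of all genes did. Without BDL replicate 2, 3 nuclear members rose (3.53%), and 7.15% of all genes did. With the acinar markers' log2 share of counts as a further term there were 3 (9.87% of all genes), without BDL replicates 1 and 4 also 3 (8.85%) and without BDL replicates 2 and 3 there were 7 (8.53%). Without BDL replicate 4, 21 nuclear members rose (24.7%), and 12.8% of all genes did. Without BDL replicate 3 there were 17 (20%, against 11.2% of all genes) and without sham replicate 2 there were 16 (18.8%, against 8.87%). Of the 17 and the 16, only 15 and 9 were among the 19 called with all libraries. These shares stand against all genes tested, and none is given for genes of at least 10 CPM, the closer background. Uqcrc1 and Atp5mc2 rose, and Cox8b fell, in all 19 alternatives run. The plot of calls under each alternative shows the counts together.

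**Figure D2:**
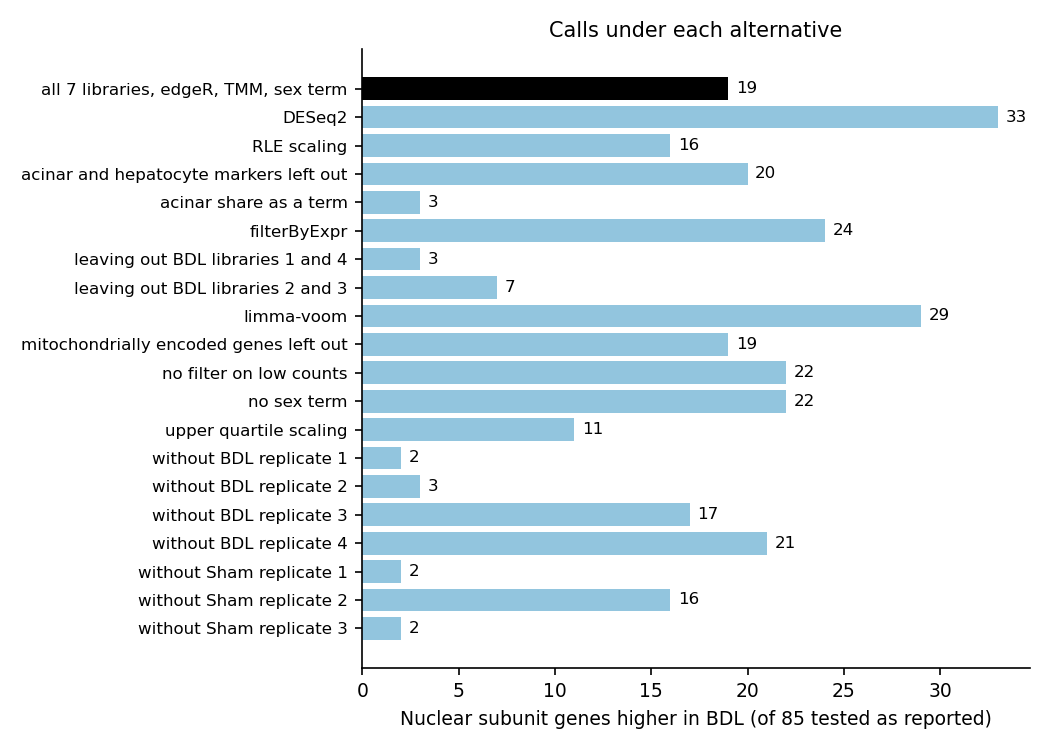
Number of nuclear subunit genes with higher expression in BDL (adjusted p under 0.05) with all 7 libraries (black, 19) and under each alternative (blue). Counts run from 2 to 33, with the lowest in 3 of the fits on 6 libraries.

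The spread within groups was shared by most members. BDL replicate 4 was the highest BDL library for 65 of the 85 tested nuclear members and BDL replicate 3 the lowest for 55. Sham replicate 2 was the highest sham library for 75 and sham replicate 1 the lowest for 77. Their median deviation from the sham mean, on the log2(CPM + 0.5) scale, was 0.45, 0.31, 0.29 and 0.62 in BDL replicates 1 to 4 and -0.26, 0.29 and -0.03 in sham replicates 1 to 3. Sham replicate 2 thus reached the level of the lower BDL libraries. Short genes in general did likewise. The 463 nuclear protein-coding genes of at least 10 CPM, members included, whose canonical transcript was no longer than 1014 bases (the median of the nuclear members) showed the same order, with -0.26, 0.29 and -0.04 in the sham libraries and a median log2 fold change of 0.43. For the 9522 longer genes these sham values were -0.00, 0.06 and -0.06, with a median log2 fold change of 0.19. Among members the shorter and the longer ones had medians of 0.47 and 0.48, and 6 of 43 and 13 of 42 rose. In sham replicates 1 to 3 the shorter members had -0.28, 0.38 and -0.07, and the longer ones -0.22, 0.20 and 0.01. The part of transcript length or of sample quality in the members' result was not tested.

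**Figure D3:**
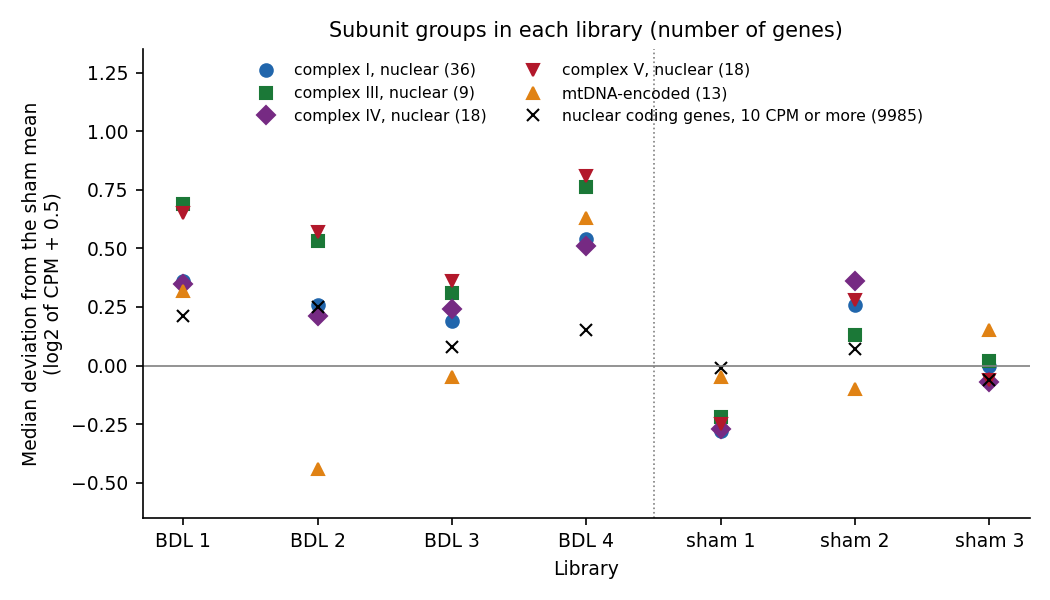
Median deviation from the sham mean (log2 of CPM + 0.5) of each group of subunit genes in each library, BDL replicates left of the dotted line and sham replicates right of it. In sham replicate 2 the nuclear groups reach 0.13 to 0.36, and the mtDNA group ranges from -0.44 in BDL replicate 2 to 0.63 in BDL replicate 4.

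In complex III all 9 nuclear members had positive log2 fold changes, with a median of 0.63, and 3 rose. Uqcrc1, a core protein of the matrix side of the complex (ENSMUSG00000025651, GRCm39 chromosome 9, 108765701 to 108778710, plus strand), had 320.5, 307.7, 280.0 and 285.7 CPM in BDL against 141.9, 169.2 and 168.8 CPM in sham. The groups lay far apart, and no library of either came near the other. Its log2 fold change was 0.93 (SE 0.16, adjusted p = 0.00694). Its partner core protein Uqcrc2 had 185.6, 184.5, 148.0 and 177.9 CPM in BDL against 105.3, 123.1 and 116.4 CPM in sham (log2 fold change 0.63, SE 0.15, adjusted p = 0.0231). Cyc1, the cytochrome c1 that carries electrons out of the complex, had 168.6, 150.8, 100.8 and 175.0 CPM in BDL against 73.6, 89.8 and 89.9 CPM in sham (log2 fold change 0.86, SE 0.21, adjusted p = 0.0271). BDL replicate 3 was the closest of the BDL libraries to sham for both genes. The other nuclear subunits of this complex did not pass the test. Their log2 fold changes lay between 0.17 for the hinge protein Uqcrh and 0.74 for Uqcrq. Among them Uqcrfs1 had 0.58 (adjusted p = 0.0569).

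All 18 tested nuclear members of ATP synthase had positive log2 fold changes, with a median of 0.64, and 7 rose. Atp5mc2 changed most among the members that rose. It is 1 of 3 genes for subunit c, which forms the rotating membrane ring. It (ENSMUSG00000062683, GRCm39 chromosome 15, 102571295 to 102580787, minus strand) had 4.70, 5.98, 4.79 and 4.80 CPM in BDL against 1.44, 1.34 and 1.69 CPM in sham. The lowest BDL library was well above the highest sham library, with 273 to 326 counts behind each BDL value and 63 to 86 behind each sham value. The log2 fold change was 1.78 (SE 0.27, adjusted p = 0.00465), or 3.44-fold. Atp5mc3, another gene for the same protein, had 322.9, 295.1, 239.6 and 426.7 CPM in BDL against 138.7, 195.9 and 168.4 CPM in sham (log2 fold change 0.96, SE 0.26, adjusted p = 0.0367). Here BDL replicate 4 was the high library. The third gene, Atp5mc1, had 138.0, 113.1, 107.1 and 184.3 CPM in BDL against 73.8, 108.8 and 109.5 CPM in sham, and the groups overlapped (log2 fold change 0.50, adjusted p = 0.208).

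The 3 subunit c genes differed widely in level. Per kilobase of canonical transcript, Atp5mc3 had 325 ± 79.4 CPM in BDL and 170 ± 29 CPM in sham (SD, n = 4 and 3). Atp5mc1 had 222 ± 57.3 CPM per kilobase in BDL and 159 ± 33.4 in sham. Atp5mc2 had 6.93 ± 0.833 CPM per kilobase in BDL and 2.04 ± 0.248 in sham, so the gene with the greatest fold change was the least abundant of the 3. Since these genes encode the same mature protein and have related copies, the division of shared reads among them is uncertain.

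Outside the ring, Atp5f1d, the delta subunit of the central stalk, had 166.5, 145.9, 125.7 and 163.4 CPM in BDL against 82.7, 110.6 and 101.8 CPM in sham (log2 fold change 0.65, SE 0.17, adjusted p = 0.0305). Atp5po, the stalk protein that holds the catalytic head still and confers oligomycin sensitivity, had 169.4, 153.6, 130.7 and 185.8 CPM in BDL against 86.3, 115.0 and 107.8 CPM in sham (log2 fold change 0.67, SE 0.19, adjusted p = 0.0398). The groups of both genes were apart by less than the range within BDL. Named after their values were seen, the other members of this complex that rose were Atp5mg of the membrane part (log2 fold change 0.72) and Atp5f1b and Atp5f1a of the catalytic head (0.82 and 0.76), with adjusted p-values of 0.0415, 0.047 and 0.0477. Atp5if1, the inhibitor that stops ATP synthase from running backwards, had 184.3, 186.8, 202.2 and 199.1 CPM in BDL against 98.7, 172.8 and 94.6 CPM in sham. Its groups did not overlap, but sham replicate 2 lay close to BDL, and the log2 fold change of 0.69 (SE 0.25) did not pass (adjusted p = 0.0906).

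In complex I, 7 of 36 tested nuclear members rose (19.4%, against 22.9% of the 9985 genes given above) and none fell. The median of their log2 fold changes was 0.34. Ndufa10, an accessory subunit of the membrane arm, had 114.2, 108.6, 101.6 and 116.6 CPM in BDL against 63.8, 77.9 and 74.2 CPM in sham (log2 fold change 0.64, SE 0.14, adjusted p = 0.0179). Its groups did not overlap, and sham replicate 1 was the lowest library. Ndufb6 of the membrane arm had 67.4, 62.8, 57.3 and 83.8 CPM in BDL against 30.4, 48.6 and 36.1 CPM in sham (log2 fold change 0.85, SE 0.22, adjusted p = 0.0308). Ndufs4, an accessory subunit whose loss causes a model of Leigh syndrome in mice, had 67.8, 64.2, 63.7 and 74.1 CPM in BDL against 39.2, 54.1 and 42.1 CPM in sham (log2 fold change 0.60, SE 0.16, adjusted p = 0.0368). Among the others that rose, named after their values were seen, were Ndufv1, Ndufb7 and Ndufa9, with log2 fold changes of 0.60, 0.55 and 0.53. The 29 that did not pass ranged down to -0.26 for Ndufb10.

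Ndufb4 had 23.8 to 34.2 CPM in BDL and 19.3 to 34.0 CPM in sham (log2 fold change 0.13, adjusted p = 0.756). Its value is uncertain, since the transcribed pseudogene Ndufb4c, which is no member, held 1393 to 2000 counts in BDL libraries and 856 to 2386 in sham libraries. Ndufb11b had no count in any library.

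Of the 4 subunits of complex II, Sdhd, a membrane anchor, rose. It had 247.0, 233.4, 193.8 and 238.7 CPM in BDL against 124.6, 160.0 and 115.5 CPM in sham, with no overlap (log2 fold change 0.80, SE 0.19, adjusted p = 0.0220). Sdhc, the other anchor, and Sdhb, the iron-sulfur subunit, had log2 fold changes of 0.50 and 0.36 that did not pass (adjusted p = 0.059 and 0.145). Sdha, the flavoprotein that oxidizes succinate, had 343.9, 347.0, 299.2 and 363.5 CPM in BDL against 340.5, 360.9 and 344.1 CPM in sham, and the groups overlapped fully (log2 fold change -0.03, SE 0.18, adjusted p = 0.912).

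Of the 18 tested nuclear members of complex IV, Cox5a rose, Cox8b fell and 16 did not pass. Their median log2 fold change was 0.39. Cox5a, which is found in all tissues, had 166.2, 161.2, 141.4 and 204.9 CPM in BDL against 75.5, 105.9 and 79.1 CPM in sham (ENSMUSG00000000088, GRCm39 chromosome 9, 57428456 to 57440678, plus strand). All BDL libraries lay above the sham libraries, and sham replicate 2 was the nearest. The log2 fold change was 0.97 (SE 0.21, adjusted p = 0.0164), and the gene rose in 16 of 19 alternatives.

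Cox8b, the isoform of subunit 8 used in heart, skeletal muscle and brown fat of mice (ENSMUSG00000025488, GRCm39 chromosome 7, 140477069 to 140480359, minus strand), was the only nuclear member that fell. It had 1, 0, 0 and 0 counts in BDL replicates 1 to 4 and 57, 549 and 209 counts in sham replicates 1 to 3, or 1.10, 8.53 and 5.61 CPM in sham. BDL libraries were at or next to 0, whereas the sham libraries differed among themselves several-fold. Summed over libraries, 1 count in BDL stood against 815 in sham. At equal TMM-scaled totals this is 1267 times as many in sham (exact interval at 95% from 227 to 50089, counting error only). The log2 fold change in the edgeR fit was -9.33 (SE 0.65, adjusted p = 0.000383).

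Most of the tested markers of fat fell, as Cox8b did, and so did some markers of striated muscle. The 8 adipocyte markers together took 0.00232% to 0.00999% of counts in BDL and 0.0168% to 0.0809% in sham, and 5 of the 7 tested fell. Adipoq, a hormone of fat cells, had 6.23, 0.0367, 3.83 and 3.21 CPM in BDL against 60.5, 287.3 and 230.5 CPM in sham (log2 fold change -5.56, adjusted p = 0.0213). Its sham libraries stood in the same order as for Cox8b, with replicate 1 the lowest and replicate 2 the highest. Those of Plin1, Lep and Adrb3 did too, whereas Cidec and Lipe were highest in sham replicate 3 and Cidea in sham replicate 1. Cidea, also on the adipocyte list, did not move (log2 fold change 0.09, adjusted p = 0.872). Ucp1, the uncoupling protein that defines brown fat, was near 0, with at most 0.0311 CPM in any library. The 10 striated muscle markers took 0.000441% to 0.000667% in BDL and 0.000321% to 0.000799% in sham, with 2 of the 8 tested higher and 2 lower, and none of the 10 was at 0 in all libraries. The muscle markers that fell were Myh1 and Ckm (log2 fold changes -6.72 and -6.94), and Tnni2 and Mylpf rose (1.40 and 1.18). Myh1 had 0 counts in every BDL library and 11, 7 and 15 counts in sham replicates 1 to 3. Ckm had 1, 0, 1 and 0 counts in BDL and 149, 0 and 37 in sham. The part of fat or muscle tissue in the Cox8b result was not tested.

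The other tissue-typical isoforms were low in both groups beside their common counterparts. Per kilobase of canonical transcript, Cox8a, the common form of subunit 8, had 254 ± 31.6 CPM in BDL and 261 ± 71.5 CPM in sham (SD, n = 4 and 3), with a log2 fold change of -0.02 (adjusted p = 0.961). Cox7a1, the muscle and brown fat form of subunit 7a, had 4.52 ± 0.543 CPM per kilobase in BDL and 9.11 ± 5.81 in sham, where the common form Cox7a2 had 144 ± 20.1 and 103 ± 19.9. Every BDL library lay below every sham library for Cox7a1, but its log2 fold change of -0.88 (SE 0.41) did not pass (adjusted p = 0.165). Cox4i2, the form of subunit 4 known from lung and from hypoxia, had 1.45 ± 0.214 CPM per kilobase in BDL and 2.45 ± 1.01 in sham, against 330 ± 40 and 284 ± 57 for the common form Cox4i1. Their log2 fold changes were -0.59 (adjusted p = 0.27) and 0.27 (adjusted p = 0.381).

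Ndufa4, first named as a complex I subunit and now placed in complex IV, had 194.8, 164.7, 162.7 and 243.8 CPM in BDL against 71.1, 155.4 and 109.2 CPM in sham. Its groups were separated only narrowly by sham replicate 2, and its log2 fold change of 0.85 (SE 0.30) did not pass (adjusted p = 0.0848). Its paralogue Ndufa4l2, induced by hypoxia in other tissues, had 5.16, 3.12, 4.49 and 5.09 CPM in BDL against 4.10, 6.56 and 4.94 CPM in sham (log2 fold change -0.20, adjusted p = 0.672). The remaining common forms Cox6a1, Cox6b1, Cox7a2, Cox7b and Cox7a2l, the last a factor of supercomplex assembly, had log2 fold changes of 0.50, 0.49, 0.51, 0.46 and 0.09, none of which passed. Cox6b2, known from testis, had a log2 fold change of -0.35 (adjusted p = 0.551). The muscle form Cox6a2 and the testis forms Cox7b2 and Cox8c had at most 4 counts in any library and were not tested.

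**Figure D4:**
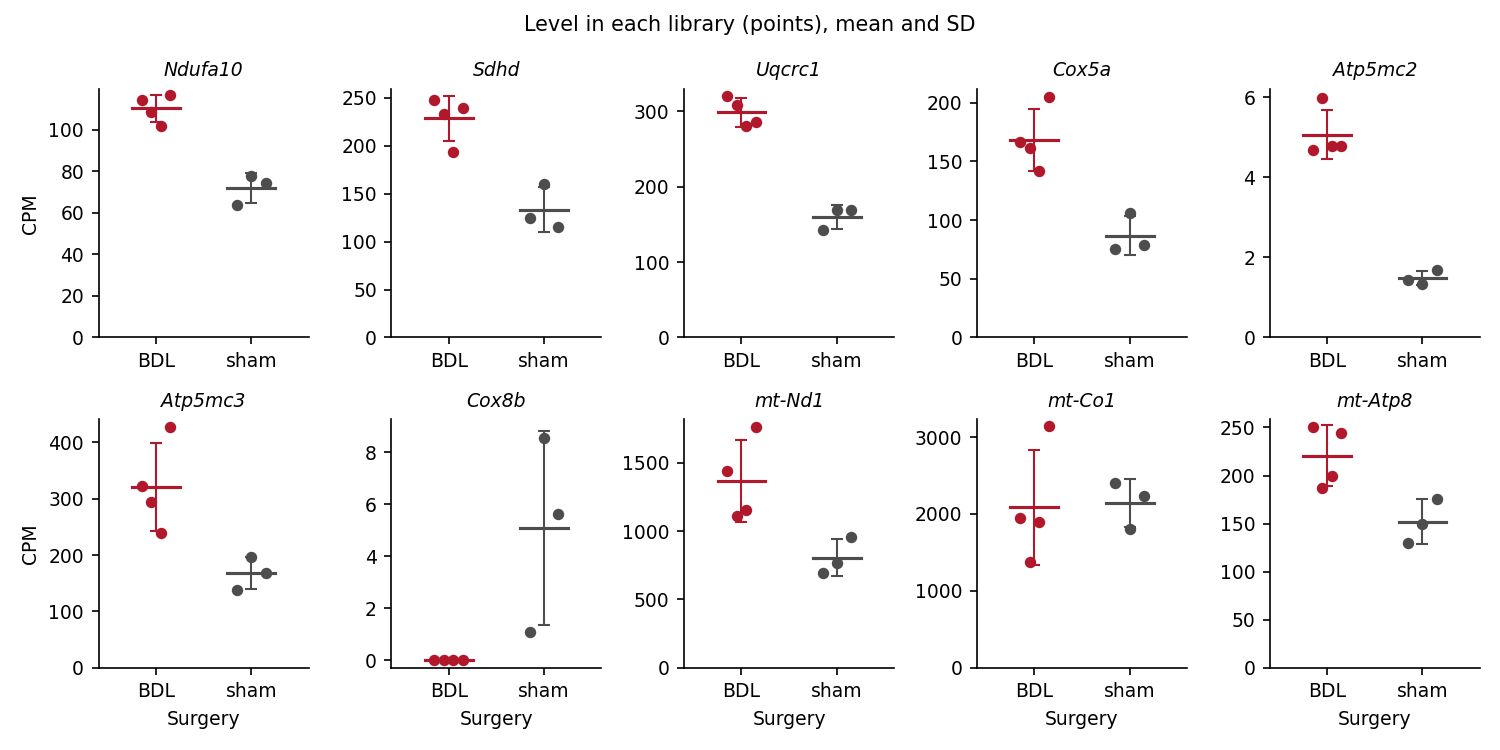
Level in CPM of 10 subunit genes in each library (points), with mean and SD, BDL (n = 4, red) left of sham (n = 3, grey). Each panel has its own scale; Ndufa10, Sdhd, Uqcrc1, Cox5a, Atp5mc2 and Atp5mc3 are higher in all BDL libraries, Cox8b is at or next to 0 in BDL, and mt-Co1 overlaps between the groups.

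The second comparison asked whether the subunits encoded in mtDNA moved with the nuclear ones. Of the 13 mtDNA members none passed in the main edgeR fit, with 2 at an unadjusted p under 0.05. Among the alternatives, DESeq2 and limma-voom each called 2 higher. The fit with the acinar share as a term called 2 lower, and that without BDL replicates 1 and 4 called 1 lower. Their median log2 fold change was 0.17, with 7 positive and 6 negative values between -0.33 and 0.76, against 0.47 for the nuclear members. In 3 of the 13 (23.1%) every BDL library was above every sham library. This compares with 18.7% of all genes tested and 31% of the 9985 nuclear protein-coding genes of at least 10 CPM. The median moved to 0.48 without BDL replicates 2 and 3 and to -0.22 without BDL replicates 1 and 4. Hepatocyte markers took 1.45% and 4.91% of counts in BDL replicates 1 and 4, and 0.0125% and 0.0151% in replicates 2 and 3. Acinar markers took 0.278% and 0.00288% in replicates 1 and 4, and 10.8% and 16.4% in replicates 2 and 3. The part of either tissue in this shift was not tested. BDL replicate 4 was the highest BDL library for 12 of the 13 genes and BDL replicate 2 the lowest for 11. Since DNA copies, transcription and RNA decay were not measured, these values are RNA levels only.

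mt-Nd1, a core membrane subunit of complex I (mtDNA 2751 to 3707, plus strand, GRCm39), had 1436.1, 1111.3, 1153.4 and 1762.5 CPM in BDL against 690.4, 770.1 and 955.5 CPM in sham. The groups did not overlap, but the log2 fold change of 0.76 (SE 0.30) missed the threshold (adjusted p = 0.108). mt-Atp8, a small membrane subunit of ATP synthase, had 250.9, 187.5, 199.1 and 244.2 CPM in BDL against 129.4, 149.7 and 176.0 CPM in sham (log2 fold change 0.57, SE 0.20, adjusted p = 0.0816). mt-Atp6, which forms the proton channel beside the c ring, had 2940.5, 2150.4, 2477.8 and 3484.0 CPM in BDL against 2010.2, 2111.9 and 2131.2 CPM in sham (log2 fold change 0.38, adjusted p = 0.405). BDL replicate 2 was only just above the sham libraries for mt-Atp6.

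The other 10 overlapped between the groups. mt-Co1, the catalytic subunit of complex IV with its oxygen-binding site, had 1941.7, 1370.4, 1890.1 and 3140.5 CPM in BDL against 2405.8, 1799.0 and 2238.5 CPM in sham (log2 fold change -0.15, adjusted p = 0.779). mt-Co2, which receives electrons from cytochrome c, and mt-Co3 of the same core had log2 fold changes of 0.31 and -0.04. mt-Cytb, the mtDNA subunit of complex III, had 2190.4, 1530.7, 1626.2 and 2918.8 CPM in BDL against 1791.6, 1477.2 and 2034.6 CPM in sham (log2 fold change 0.19, adjusted p = 0.729). In complex I, whose mtDNA members all build the proton-pumping membrane arm, mt-Nd2, mt-Nd3, mt-Nd4 and mt-Nd4l had log2 fold changes of -0.26, -0.27, -0.25 and -0.33, and mt-Nd5 and mt-Nd6 of 0.23 and 0.17. None of them passed the test.

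Neighbouring mtDNA genes share bases, which bears on how reads can be assigned. mt-Atp8 and mt-Atp6 overlap by 43 bases (chrM:7927-7969) and mt-Nd4l and mt-Nd4 by 7 bases (chrM:10167-10173), both on the plus strand. mt-Nd5 and mt-Nd6, which lie on opposite strands, overlap by 14 bases (chrM:13552-13565). The first 2 overlaps are printed with 10 bases on each side, in GRCm39 and on the plus strand, with the shared bases in capitals. In the cell each of the first 2 pairs is carried on a joint messenger, and Salmon divides reads that span it, so the separate values of mt-Atp8, mt-Atp6, mt-Nd4l and mt-Nd4 are uncertain. The libraries did not mark strand, which makes mt-Nd5 and mt-Nd6 uncertain where they overlap. Along the rest of mt-Nd6, any RNA copied from the other strand could not be told apart either, so its value is uncertain. Among the mtDNA members, mt-Nd6 alone lies on the minus strand.
mt-Atp8 and mt-Atp6: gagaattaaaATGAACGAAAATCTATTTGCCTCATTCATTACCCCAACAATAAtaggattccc
mt-Nd4l and mt-Nd4: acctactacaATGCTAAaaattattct

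Levels per kilobase spanned a wide range within the mtDNA set, although most of it is copied as long joint precursors. mt-Atp6 was the most abundant, with 4057.5 ± 851 CPM per kilobase in BDL and 3060.9 ± 95.4 in sham (SD, n = 4 and 3). mt-Co3 followed with 2942.3 ± 1024 in BDL and 2848.8 ± 88.1 in sham. In sham the next were mt-Co2 (1716.0 ± 172) and mt-Cytb (1545.3 ± 244), which differed by less than their SD, and mt-Nd4l was the lowest with 70.7 ± 30.9 in BDL and 81.3 ± 30.2 in sham. The most abundant nuclear member per kilobase of canonical transcript was Atp5f1b, the catalytic beta subunit, with 694.8 ± 92.5 in BDL and 401.2 ± 30.6 in sham. Values of the mtDNA genes in BDL had the larger SDs, since BDL replicates 2 and 4 stood apart.

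As a share of all counts, the 13 mtDNA members took 1.68%, 1.05%, 1.27% and 2.11% in BDL replicates 1 to 4 against 1.29%, 1.31% and 0.794% in sham replicates 1 to 3. The 90 nuclear members took 1.39%, 1.15%, 1.04% and 1.40% in BDL against 0.743%, 1.12% and 0.487% in sham. Both sets overlapped between the groups, and sham replicate 3, with the highest acinar share, had the lowest values. With the acinar and hepatocyte markers taken out of the total, mtDNA members took 1.71%, 1.18%, 1.52% and 2.22% in BDL against 1.68%, 1.51% and 1.59% in sham. The sham libraries then lay close together and inside the range of BDL. On the same total, nuclear members took 1.42%, 1.29%, 1.24% and 1.47% in BDL against 0.966%, 1.30% and 0.978% in sham, where sham replicate 2 alone reached the range of BDL. Counts of mtDNA members over those of nuclear members, a ratio that no scaling of the libraries changes, were 1.20, 0.911, 1.22 and 1.51 in BDL against 1.74, 1.16 and 1.63 in sham. The groups overlapped through sham replicate 2, and no test was run on these sums.

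**Figure D5:**
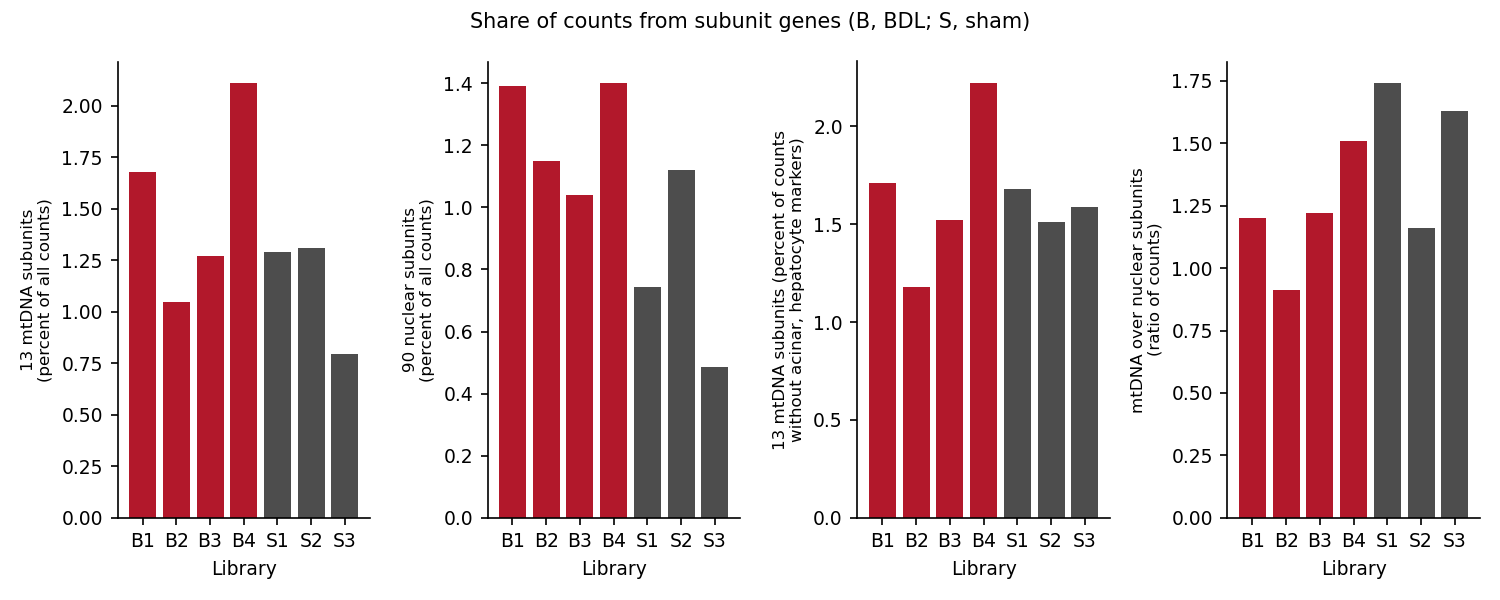
Share of counts from the 13 mtDNA and the 90 nuclear subunit genes in each library, the mtDNA share with acinar and hepatocyte markers left out of the total, and the ratio of mtDNA to nuclear counts (BDL red, sham grey). The ratio is 0.911 to 1.51 in BDL and 1.16 to 1.74 in sham.

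Other mitochondrial genes gave context. For the counts that follow, 11.8% of all genes tested rose and 11% fell. Of the 9985 nuclear protein-coding genes of at least 10 CPM, 22.9% rose. The electron carriers and further entries to the chain held 6 genes of 19 that rose, and the list's median was 0.48 on the log2 scale. Pdss1, which makes the tail of ubiquinone, had 19.5, 20.3, 12.1 and 19.7 CPM in BDL against 4.54, 4.20 and 2.95 CPM in sham (log2 fold change 2.20, SE 0.28, adjusted p = 0.0025). Coq7, a later enzyme of ubiquinone synthesis, had 39.9, 34.6, 29.6 and 40.2 CPM in BDL against 11.3, 15.8 and 16.1 CPM in sham (log2 fold change 1.38, SE 0.18, adjusted p = 0.00279). Both genes were separated by wide gaps. The soluble carrier cytochrome c, Cycs, reached 1.08 on the same scale (SE 0.30, adjusted p = 0.0378), and Aifm1, which supports import of respiratory subunits, had 0.95 (adjusted p = 0.0186).

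The assembly factors had a median log2 fold change of 0.40 for complex I, -0.19 for complexes II and III, 0.15 for complex IV and 0.39 for complex V, beside 0.34, 0.43 (complex II), 0.63 (complex III), 0.39 and 0.64 for the nuclear subunits. These differences were not tested. Of the complex I factors 4 of 15 rose, among them Ndufaf6, Foxred1 and Ndufaf2 (log2 fold changes 1.17, 0.89 and 0.75), and Tmem126b, part of the module that builds the membrane arm, fell (-0.78, SE 0.22, adjusted p = 0.0435). Of 13 factors for complexes II and III none rose and Uqcc1 fell (-0.54, SE 0.16, adjusted p = 0.0491). Of 24 complex IV factors Cox18, the insertase for mt-Co2, and Cox10, which makes heme A's precursor, rose (1.07 and 0.97). Atpaf1, a chaperone of the catalytic head, was the complex V factor that rose of 5 (0.55, adjusted p = 0.0404).

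Among 18 genes that copy and express mtDNA none rose and Mgme1, an exonuclease of mtDNA replication, fell (log2 fold change -0.91, SE 0.19, adjusted p = 0.0154), with a median of -0.09. Tfam, which packages mtDNA, and Polrmt, its RNA polymerase, had 0.63 and 0.49 and did not pass (adjusted p = 0.0635 and 0.0861). Of 10 tested nuclear regulators of respiratory genes, Gabpb1, a subunit of GABP, rose with 38.4, 40.6, 29.2 and 27.9 CPM in BDL against 21.8, 18.3 and 16.3 CPM in sham (log2 fold change 0.86, SE 0.20, adjusted p = 0.0204). Nrf1 and Gabpa each had 0.40, Esrra -0.00 and the coactivator Ppargc1a -0.70, none of which passed. Ppargc1a had 18.2 CPM in BDL replicate 4 but 3.02 to 5.34 CPM in the other BDL libraries, against 8.90 to 11.7 CPM in sham.

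The lists for protein synthesis, import and exchange in mitochondria held larger shares of genes that rose than the nuclear members did, without a test of the difference. Of 78 genes of the mitochondrial ribosome, which translates the mtDNA members, 36 rose (46.2%). Their median was 0.53 on the log2 scale, and the smallest p-values belonged to Mrpl28, Mrpl2 and Mrps9 (0.85, 0.82 and 1.14). Of 24 tested import genes 10 rose with a median of 0.70. Tomm40, the pore of the outer membrane, had 83.9, 84.0, 68.0 and 80.8 CPM in BDL against 26.4, 31.2 and 29.4 CPM in sham (log2 fold change 1.48, SE 0.13, adjusted p = 0.000766), and all 19 alternatives gave the same call. Timm50 and Timm23 of the inner membrane had 1.12 and 1.33.

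Of 9 tested genes of nucleotide exchange and uncoupling, 6 rose, among them the outer membrane channels Vdac1 and Vdac2 (log2 fold changes 0.95 and 0.93) and the phosphate carrier Slc25a3 (0.84). Ucp3, a muscle and fat relative of Ucp1, fell, with 0.452, 0.0367, 0.494 and 0.527 CPM in BDL against 1.68, 7.75 and 8.80 CPM in sham (-3.91, SE 1.03, adjusted p = 0.0335). Its low BDL values stood beside the low adipocyte markers given above. Of 13 citric acid cycle genes that are no members 5 rose with a median of 0.42. Mdh2, which makes oxaloacetate, had 377.6, 378.6, 346.5 and 455.4 CPM in BDL against 133.9, 172.0 and 159.3 CPM in sham (1.34, SE 0.20, adjusted p = 0.00446), and citrate synthase, Cs, and Dlst of the oxoglutarate dehydrogenase had 0.92 and 0.79.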

How the data were processed

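The SMART-Seq mRNA kit used for the libraries copies polyadenylated RNA without marking strand, so genes that overlap on opposite strands cannot be separated. The authors assigned reads to transcripts with Salmon (GRCm39, per the submitters' processing notes) and added up each gene's transcripts. What they deposited are estimated counts, as whole numbers without scaling. Salmon divides reads between similar genes, so members with pseudogenes or near copies are uncertain.

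Names and types were taken from GENCODE mouse release M39, where 55563 of 56065 identifiers were found. The 502 not found held 0.0335% of counts. All pairs of libraries differed beyond sampling noise (chi-square per degree of freedom of 202.3 or more). Replicates were numbered in accession order and pair no samples.

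edgeR 4.0.16 (R 4.3.3) was fitted to the whole table with terms for surgery and sex, which left 4 degrees of freedom, after TMM scaling and removal of genes below 10 counts in total. Its quasi-likelihood test gave p-values that were adjusted by Benjamini-Hochberg over 25209 genes, with a threshold of 0.05, and was checked on simulated counts. Where no other tool is named, an adjusted p comes from this fit, and log2 fold changes are of BDL over sham. CPM used TMM-scaled totals. Levels per kilobase used the canonical transcript, a choice made after union exon lengths were seen to exceed mRNA lengths. The background of genes with at least 10 CPM was also chosen after seeing the values. As alternatives, scaling was changed to RLE or upper quartile, the low-count filter to filterByExpr or none, and the tool to DESeq2 1.42.0 or limma-voom (limma 3.58.1). Further ones dropped the sex term, added the log2 share of counts in acinar markers as a term, or left out marker genes, mtDNA genes or libraries.

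Members, lists and tests were chosen with earlier results of these data known. Named genes were all mtDNA members, up to 4 called nuclear members of each complex in each direction by smallest p, the isoform sets, Atp5if1, up to 3 called genes and any opposing gene of each other list, and key regulators. A member that this rule names is not reported here. The interval given covers counting error only, since reads carry no molecular identifiers.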

Additional observations from a re-analysis of the deposited data

Results flagged for a closer look

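Among 47 groups of 4 BDL values, 2 had a library that stood apart from the other 3 by Dixon's ratio, the gap to the nearest value over the whole range, above the 95% critical value. Chance gives about 1 in 20 such groups. For Cox8b the ratio was 1, since BDL replicate 1 held 1 count and the others 0. For Atp5mc2 it was 0.922, since BDL replicate 2 had 5.98 CPM and the other BDL libraries 4.70 to 4.80 CPM. Atp5mc2 was also higher without BDL replicate 2.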

How the results depend on the processing

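The direction of the nuclear members held in the alternatives run, with a median log2 fold change of 0.25 to 0.58, but the number of calls did not. With 19 nuclear members higher as reported, DESeq2 called 33, limma-voom 29, upper quartile scaling 11 and an acinar term 3 (38.8%, 34.1%, 12.9% and 3.53% of those tested, against 15.3%, 12.9%, 9.86% and 9.87% of all genes), and leaving out BDL libraries 1 and 4 left 3 and 2 and 3 left 7. With single libraries left out the counts ran from 2 to 21 and the median from 0.25 to 0.57, and the acinar term gave a median of 0.27. For complex I (7 as reported) these were 11 in DESeq2, 3 with upper quartile scaling, 0 with the acinar term or without BDL libraries 1 and 4, 1 without 2 and 3, and 0 to 8 with single libraries left out. For complex II (1) they were 2 in DESeq2, limma-voom and filterByExpr, 0 with the acinar term or without BDL libraries 1 and 4, and 0 to 1. For complex III (3) they were 6 in DESeq2 and limma-voom, 5 with no filter on low counts or no sex term, 1 with the acinar term or without BDL libraries 1 and 4, and 1 to 4. For complex IV (1) they were 3 in DESeq2, 2 with no filter, and 0 to 2. For complex V (7) they were 11 in DESeq2, 3 with upper quartile scaling, 1 with the acinar term or without BDL libraries 1 and 4, 2 without 2 and 3, and 1 to 7. Of all genes tested, 16.5% rose with filterByExpr, 9.89% with no filter on low counts and 12.4% with no sex term. Without BDL libraries 1 and 4 this was 8.85%, and without 2 and 3 it was 8.53%. With single libraries left out it ran from 6.82% to 12.8%. The share among genes of at least 10 CPM, the closer background, is not given for the alternatives. The nuclear member that fell, Cox8b, was called in each alternative. Of the mtDNA members, 2 were higher in DESeq2 and 2 in limma-voom, 2 were lower with the acinar term and 1 without BDL libraries 1 and 4. The log2 ratio of the mtDNA share of counts was 0.42, 0.02 without acinar and hepatocyte markers in the total, and -0.14 as a share of the members' counts.

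The median of all genes tested was -0.01 as reported, -0.13 with upper quartile scaling, -0.04 in DESeq2 and with RLE scaling, -0.05 without BDL libraries 1 and 4 or 2 and 3, and -0.05 to 0.01 with single libraries left out. Under upper quartile scaling the nuclear median was 0.35. Over 74 named genes, 1393 values under alternatives held 150 calls lost, 19 gained and none that changed sign where a value passed. The cause of these changes was not tested. No paired analysis was possible because the labels give no replicate numbers shared by the groups.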

Other observations

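Among nuclear members, Cox5b-ps, annotated as protein-coding despite its symbol, had 6 to 9 counts in BDL libraries and 1 to 4 in sham libraries, too few to place it (log2 fold change 1.08, SE 0.80, adjusted p = 0.365). A second identifier named Atp5po held counts in BDL replicate 1 only and was not tested. Ndufb4b, a long noncoding RNA and no member, held 27 to 155 counts in BDL libraries and 9 to 62 in sham libraries. The rank correlation of canonical transcript length with log2 fold change was 0.05 over 85 nuclear members and -0.14 over 9985 nuclear protein-coding genes of at least 10 CPM, which share the same 7 libraries.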
